A study of Mus musculus with 14 samples.

Results

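The 9 genes described here encode transcription regulators of effector T cells and effector regulatory T cells. They are Id2, Batf, Irf4, Prdm1, Maf, Rora, Gata3, Tbx21 and Nfil3, chosen by name from a table of 25124 genes, and all 9 were in the table and among the 13434 genes tested. The choice was made with earlier results of these data known. The sequenced T cells were sorted from AE17-OVA tumours, a mouse mesothelioma line that carries the model antigen ovalbumin, grown under the skin of female C57BL/6 mice aged 8 to 12 weeks. A dose of 200 ug of anti-PD-L1 (clone MIH5), or of isotype antibody (clone 2A3), was given intraperitoneally at day 10, and day 13 was the day of harvest. PD-1 is an inhibitory receptor of T cells, and the antibody binds its ligand. The 14 libraries form 6 groups: PD-1+ regulatory T cells (Tregs) with 3 anti-PD-L1 and 2 isotype libraries, PD-1- Tregs with 2 and 2, and other CD4 T cells with 3 and 2. Cells were sorted on CD4, CD25, RFP and PD1, and libraries were made by Smart-seq2, a full-length cDNA protocol for small inputs without molecular identifiers. All 6 groups carry the same labelled genotype, GATIR Foxp3Cre-rfp Gata3Cre-yfp, so that Foxp3 reports Tregs in red and the Gata3 locus, or a transgene named for it, carries a Cre and a yellow reporter in every mouse. Any effect of that allele on the counts of Gata3, which is among the 9 genes, was not tested. The labels do not tell which animals or pools stand behind each library, so a p-value here reflects variation among libraries, which may be technical.

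These regulators decide which effector programme a CD4 T cell runs. ID2 has no DNA-binding domain and works by binding E proteins, which otherwise recognise the E-box motif and favour naive and memory-like states. BATF pairs with JUN proteins and, together with IRF4, opens the chromatin of activated T cells, and both factors are needed for effector Tregs in non-lymphoid tissue. Prdm1 encodes Blimp-1, which marks effector Tregs that make IL-10, and MAF also drives IL-10. T-bet, encoded by Tbx21, directs Th1 cells, GATA3 directs Th2 cells and is found in tissue Tregs, and RORα, encoded by Rora, acts in Th17 cells, innate lymphoid cells and skin Tregs. NFIL3, also called E4BP4, is a repressor and activator of cytokine genes.

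Total counts per library ran from 10638848 to 15030804. PD-1+ Treg libraries had at least 1 count for 9662 to 11312 genes, PD-1- Treg libraries for 8027 to 8801 and CD4 libraries for 12119 to 14535. All 8 T cell markers were found, and the 4 Treg markers (Foxp3, Il2ra, Ikzf2, Ikzf4) summed to 653 to 978 CPM (counts scaled to a fixed library size) in PD-1+ Tregs and 975 to 1669 CPM in PD-1- Tregs, against 110.1 to 359 CPM in CD4 T cells. Foxp3 alone ran from 15.9 to 156 CPM in PD-1+ Tregs and from 16.3 to 55.0 CPM in CD4 T cells, so it did not set these populations apart. Y-linked genes, which are not expected in female mice, summed to 285, 249.5 and 208 CPM in 1 anti-PD-L1 library of PD-1+ Tregs, PD-1- Tregs and CD4 T cells, and to at most 0.0849 CPM in the isotype libraries. These are the 3 libraries with the bracketed number 3 in their titles, 1 in each population, and values without them are given below for part of the results. In bulk libraries, fewer cells of a type and less RNA per cell cannot be told apart.

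Id2 was higher under anti-PD-L1 in all 3 populations. Its level was 2.37-fold, 2.79-fold and 3.27-fold that of isotype in PD-1+ Tregs, PD-1- Tregs and CD4 T cells, and every anti-PD-L1 library lay above every isotype library of its population. PD-1+ Tregs had 639.6, 634 and 537 CPM under anti-PD-L1 and 250.2 and 259.9 CPM under isotype. PD-1- Tregs had 254 and 415 CPM under anti-PD-L1 and 96.7 and 143 CPM under isotype. CD4 T cells had 911, 1126 and 1047 CPM under anti-PD-L1 and 341 and 287 CPM under isotype. Isotype CD4 T cells lay within the range of anti-PD-L1 PD-1- Tregs.

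The promoter of Id2 is shown because Id2 passed the test in each of the 4 comparisons that called any of the 9 genes, and that of Tbx21 because Tbx21 was the other gene called. Both windows run from 250 bases before to 50 after the gene's start, in the 5′ to 3′ direction of the gene, from RefSeq (GRCm38.p6, the build also known as mm10). Id2 is chr12:25096043-25096342 and Tbx21 is chr11:97115282-97115581, both on the minus strand. Capitals mark the E-box, CANNTG, the motif of the E proteins that ID2 inhibits. It reads the same on both strands.
Id2: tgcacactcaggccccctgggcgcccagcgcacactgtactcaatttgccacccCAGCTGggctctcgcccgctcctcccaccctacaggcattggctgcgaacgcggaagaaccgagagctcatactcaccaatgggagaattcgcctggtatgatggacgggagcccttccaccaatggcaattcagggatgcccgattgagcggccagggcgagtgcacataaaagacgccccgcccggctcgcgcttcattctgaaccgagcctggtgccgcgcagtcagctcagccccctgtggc
Tbx21: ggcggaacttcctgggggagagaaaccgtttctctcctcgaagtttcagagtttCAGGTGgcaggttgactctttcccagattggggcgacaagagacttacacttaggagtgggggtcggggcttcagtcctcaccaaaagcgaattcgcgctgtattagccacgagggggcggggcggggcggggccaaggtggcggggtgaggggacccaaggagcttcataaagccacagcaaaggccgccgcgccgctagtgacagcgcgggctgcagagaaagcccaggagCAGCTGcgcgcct
The Id2 window holds 1 E-box and the Tbx21 window 2. The motif is common, with a match in 72.3% of 32851 promoters of the same length, so these matches are a description of the letters and no sign of binding. Promoters were found for 8 of the 9 genes, and the Rora window was the one of these with no E-box. The AP-1 motif TGANTCA, searched on both strands and present in 7.81% of all promoters, had 1 match among the 8 windows, in Prdm1. The STAT motif TTCNNNGAA (8.3% of promoters), the interferon-stimulated response element (3.44%) and the AP-1 and IRF composite element (0.119%), which contains the AP-1 letters, had none.

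Treatment was tested with edgeR's quasi-likelihood test over all genes, with Benjamini-Hochberg adjusted p-values and a threshold of 0.05. In PD-1- Tregs, 1 of the 9 genes passed, against 2.66% of all genes tested (1.38% higher and 1.29% lower), and it was Id2 (log2 change 1.48 ± 0.27, SE, adjusted p = 0.0135). Averaged over the 3 populations, 1 of the 9 passed, against 1.23% of all genes (0.722% higher and 0.506% lower), again Id2 (1.48 ± 0.15, adjusted p = 0.000827), which ranked 6 of 13434 genes by p-value. That fit took all libraries as independent, and the labels do not say whether the populations came from the same animals or pools. If they did, the averaged test counts the same animals more than once and its p-value is too small. In PD-1+ Tregs none of the 9 passed, against 0.0149% of all genes, with Id2 at 1.24 ± 0.25 (adjusted p = 0.342 by edgeR, rank 13). Unadjusted p-values were below 0.05 for 3 of the 9 there, and DESeq2 called 1, Id2, in a fit that called 4.6% of all genes, while limma called 0. In CD4 T cells none of the 9 passed, against 0.00744% of all genes, with Id2 at 1.71 ± 0.26 (adjusted p = 0.0979 by edgeR, rank 3). Unadjusted p-values were below 0.05 for 2 of the 9 in CD4 T cells, DESeq2 called Id2 (0.402% of all genes called), and limma with library quality weights called 3, Id2, Rora and Tbx21 (2.27% of all genes called).

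No difference in the change of Id2 between populations passed the threshold, and the intervals of these differences leave room for unequal changes. Its log2 change in PD-1+ Tregs minus that in PD-1- Tregs was -0.24 (95% interval -1.02 to 0.54, adjusted p = 1.00 by edgeR), so a difference of up to a log2 unit in favour of PD-1- Tregs lies within the interval. The change in PD-1+ Tregs minus that in CD4 T cells was -0.47 (-1.21 to 0.28), and in PD-1- Tregs minus CD4 T cells -0.23 (-1.01 to 0.55). Without the 3 libraries with Y-linked counts, the change was 1.29 for PD-1+ Tregs, 1.06 for PD-1- Tregs (adjusted p = 0.0733 by edgeR) and 1.69 for CD4 T cells. The average over populations was then 1.34 (adjusted p = 0.00599). The PD-1- call was also lost without the first isotype PD-1- library (1.22, adjusted p = 0.0598), with limma-voom (1.42, adjusted p = 0.197), with library quality weights (1.41, adjusted p = 0.659) and with only the libraries compared (1.48, adjusted p = 0.705), and the average was called in 23 of 24 alternatives (adjusted p up to 0.102).

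Cells other than T cells also transcribe Id2, so their markers were summed beside it. The 15 macrophage and monocyte markers summed to 4511 to 6001 CPM under anti-PD-L1 and 5432 to 8180 CPM under isotype in PD-1+ Tregs. For PD-1- Tregs the sums were 841 to 939 CPM and 559 to 1083 CPM, and for CD4 T cells 3020 to 7595 CPM and 4238 to 4910 CPM, in the same order of treatments. Anti-PD-L1 and isotype libraries overlapped in all 3 populations by this sum. With edgeR, 1 of the 15 fell with treatment in PD-1- Tregs and 1 over the populations, against 1.29% and 0.506% of all genes. None of the 15 rose. The sum over 12 genes of dendritic cells and MHC class II was 27515 to 49881 CPM under anti-PD-L1 and 20139 to 34830 CPM under isotype in PD-1+ Tregs, with 10 of 12 fitted changes above 0 and a median log2 change of 0.61. In CD4 T cells their sums were 19423 to 28968 CPM and 15761 to 21399 CPM, with 11 of 12 above 0 and a median of 0.64. In PD-1- Tregs the treated sums were lower without overlap, at 9054 to 11245 CPM against 14697 to 16139 CPM under isotype, with a median of -0.50. None of the 12 passed the threshold for treatment in edgeR. The 7 CD8 T and NK cell markers overlapped as well, with 83.8 to 141 CPM under anti-PD-L1 and 99.3 to 117 CPM under isotype in PD-1+ Tregs, 0 to 69.7 CPM and 8.57 to 60.7 CPM in PD-1- Tregs, and 82.0 to 125 CPM and 78.3 to 102 CPM in CD4 T cells. B and plasma cell markers were lower under anti-PD-L1 without overlap in 2 populations, with 38.4 to 284 CPM under anti-PD-L1 and 443 to 836 CPM under isotype in PD-1+ Tregs, and 151 to 339 CPM and 359 to 541 CPM in CD4 T cells. Their part in the result was not tested.

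**Figure D1:**
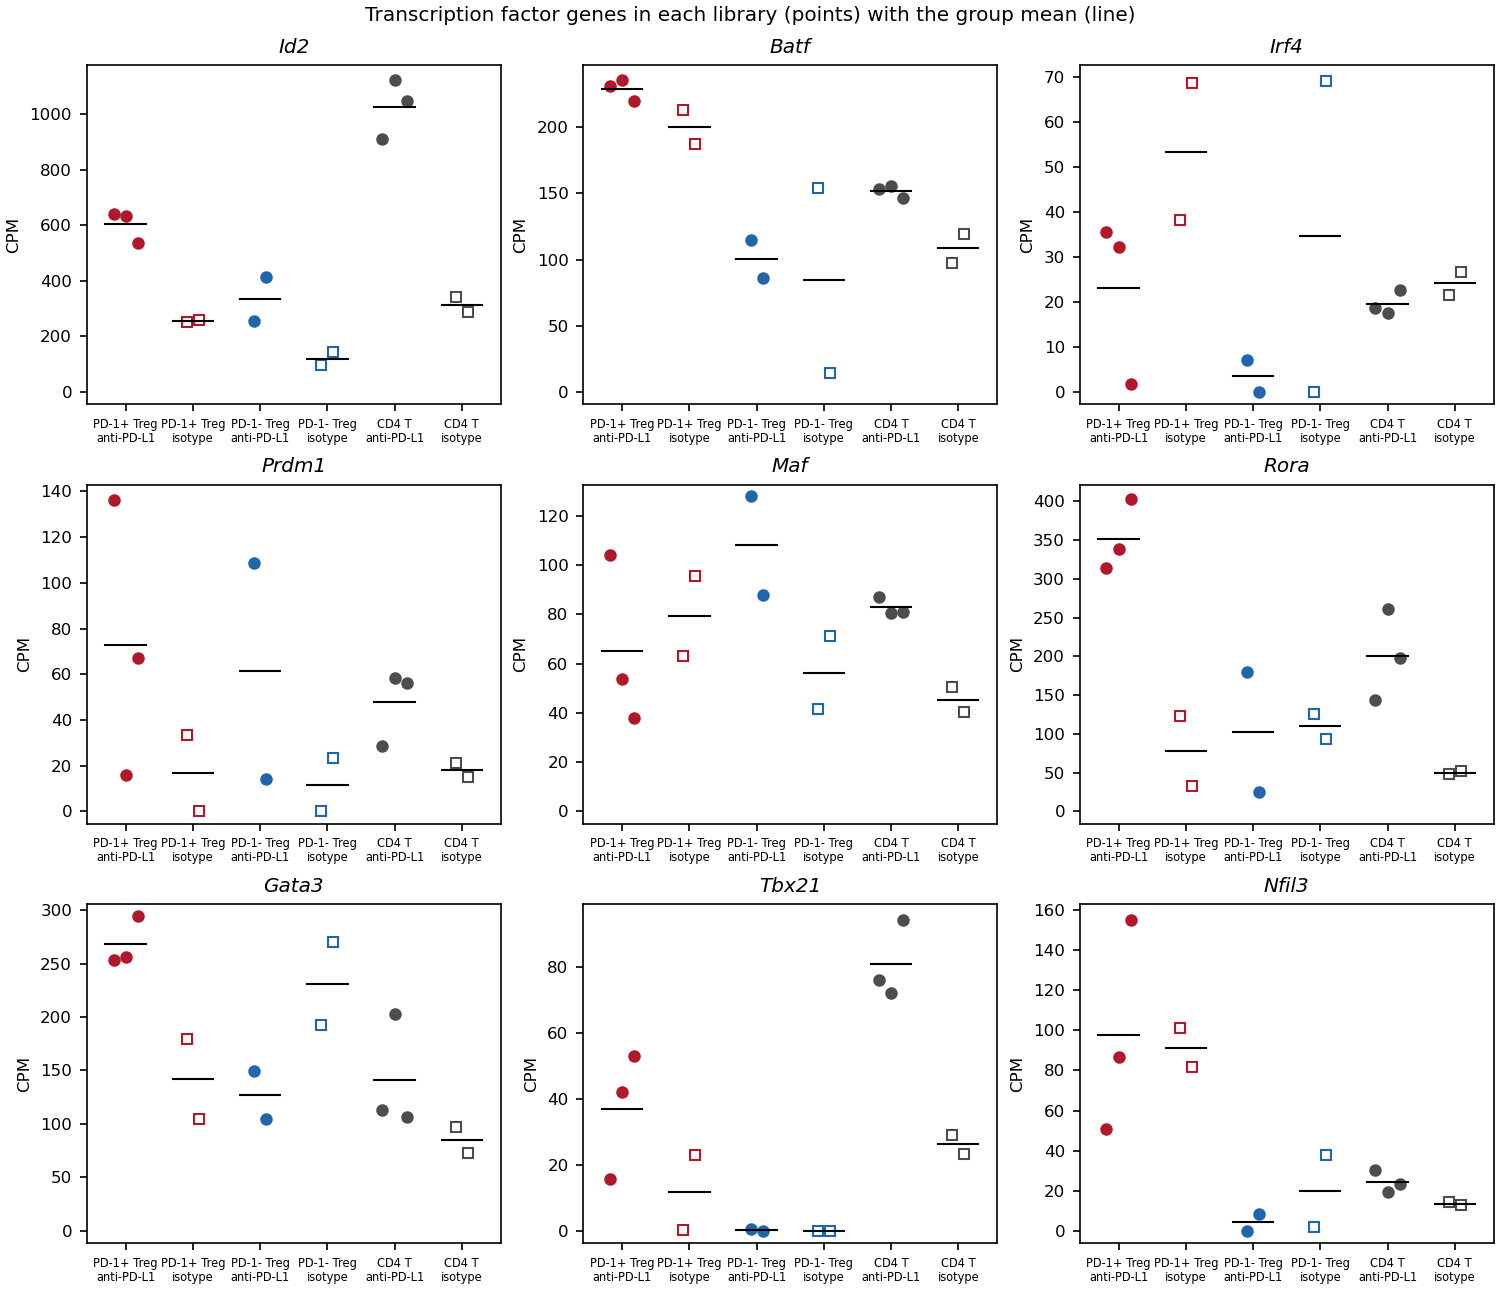
CPM of each transcription factor gene in each of the 14 libraries (vertical axis, linear, 1 scale per gene). Filled circles are anti-PD-L1 libraries, open squares isotype libraries, and the line is the group mean. The 3 Id2 groups under anti-PD-L1, with means of 603, 335 and 1028 CPM, each lie above the isotype group of the same population, with means of 255, 120.0 and 314 CPM, and Tbx21 lies at 0 to 0.592 CPM in PD-1- Tregs.

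Genes of the same pathway did not pass the test. Id3, which encodes a related inhibitor of E proteins linked to naive-like T cells, had 0.679 ± 1.18 CPM under anti-PD-L1 (SD, n = 3) and 39.2 ± 15.9 CPM under isotype (n = 2) in PD-1+ Tregs, which did not pass the test (adjusted p = 0.595 by edgeR). In CD4 T cells Id3 had 26.6 ± 4.36 CPM and 56.5 ± 20.6 CPM in the same order. The E protein genes Tcf3 and Tcf12, whose products ID2 binds, averaged 24.8 ± 11.6 and 54.1 ± 36.1 CPM in PD-1+ Tregs, 48.7 ± 54.4 and 101 ± 97.9 CPM in PD-1- Tregs, and 46.4 ± 6.26 and 48.6 ± 8.76 CPM in CD4 T cells. None of the 4 genes of this list (Id1, Id3, Tcf3, Tcf12) passed the test in any comparison, with edgeR.

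Rora was higher under anti-PD-L1 in 2 of the 3 populations without overlap between libraries. PD-1+ Tregs had 313, 339 and 403 CPM under anti-PD-L1 and 123 and 32.3 CPM under isotype, and CD4 T cells had 144, 261 and 198 CPM under anti-PD-L1 and 48.2 and 51.9 CPM under isotype. PD-1- Tregs had 180.3 and 24.5 CPM under anti-PD-L1 and 126 and 93.9 CPM under isotype, so the treated libraries there stood on both sides of the isotype libraries. The log2 change was 2.18 ± 0.74 for PD-1+ Tregs, -0.10 ± 0.74 for PD-1- Tregs and 2.00 ± 0.73 for CD4 T cells. None passed the threshold (adjusted p = 0.595, 1 and 1 by edgeR), nor did the average over populations (1.36 ± 0.42, adjusted p = 0.164), which DESeq2 called (adjusted p = 0.0116, range over alternatives 0.0116 to 0.427). The gap between the Treg types, 2.28 ± 1.03 (adjusted p = 0.291), turned on the 2 unlike PD-1- libraries: without the first of them it was 4.32 (adjusted p = 0.0146), and without the Y-linked libraries, which leaves that first library as the only treated one, 1.36 (adjusted p = 0.566). Rora is a long gene on chromosome 9 (68653404 to 69388246, GRCm38.p6) that overlaps 5 other annotated genes, and the use of strand in counting is not stated, so its counts are uncertain to that extent.

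Gata3 lay on opposite sides of isotype in the Treg types. PD-1+ Tregs had 253, 256 and 294 CPM under anti-PD-L1 and 179.5 and 104 CPM under isotype, all treated libraries above. PD-1- Tregs had 149 and 105 CPM under anti-PD-L1 and 193 and 270.0 CPM under isotype, both treated libraries below. CD4 T cells had 113, 203 and 107 CPM under anti-PD-L1 and 97.1 and 73.0 CPM under isotype, again without overlap. The share of all counts taken by Actb lay on the same sides without overlap: 5.88% to 7.27% under anti-PD-L1 and 3.60% to 4.26% under isotype in PD-1+ Tregs, 2.74% to 3.16% and 6.53% to 8.71% in PD-1- Tregs, and 3.85% to 6.67% and 3.24% to 3.84% in CD4 T cells. Within PD-1- Tregs the summed Treg markers were also lower, at 975 to 983 CPM under anti-PD-L1 and 1112 to 1669 CPM under isotype, as were the dendritic cell and MHC class II sums given above. Their part in the Gata3 values was not tested. The log2 changes of Gata3 were 0.92 ± 0.39, -0.87 ± 0.41 and 0.73 ± 0.38, and none passed the threshold (adjusted p = 0.596, 0.265 and 1 by edgeR). The difference of the change between PD-1+ and PD-1- Tregs was 1.78 ± 0.57 (95% interval 0.55 to 3.02, adjusted p = 0.156 by edgeR), and that between PD-1- Tregs and CD4 T cells -1.59 ± 0.57 (-2.82 to -0.36, adjusted p = 0.239). Of the 9 genes, 0 passed in any of these differences with edgeR, against 1.46% of all genes between the Treg types (0.841% higher and 0.618% lower), 0% between PD-1+ Tregs and CD4 T cells and 0.975% between PD-1- Tregs and CD4 T cells. Unadjusted p-values below 0.05 numbered 2, 0 and 1 of the 9, and DESeq2 called 1, Gata3 between the Treg types (adjusted p = 0.0194, range over alternatives 0.0194 to 0.580). Gata3, on chromosome 2 (9857078 to 9887953), overlaps the noncoding genes 4930412O13Rik and 9230102O04Rik, and reads from these cannot be told apart where strand was not used.

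Maf had 104, 53.8 and 38.0 CPM under anti-PD-L1 and 63.2 and 95.6 CPM under isotype in PD-1+ Tregs, where the libraries overlapped. It had 128 and 88.0 CPM under anti-PD-L1 and 41.4 and 71.2 CPM under isotype in PD-1- Tregs, and 86.9, 80.7 and 81.1 CPM against 50.3 and 40.4 CPM in CD4 T cells. Within PD-1- Tregs and within CD4 T cells every treated library was above every isotype library, with log2 changes of 0.94 ± 0.65 and 0.87 ± 0.60 that did not pass the threshold (adjusted p = 0.478 and 1 by edgeR).

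The products of Batf and Irf4 bind DNA together. Batf had 231, 236 and 220.1 CPM under anti-PD-L1 and 213 and 188 CPM under isotype in PD-1+ Tregs, and 153, 156 and 147 CPM against 97.8 and 119 CPM in CD4 T cells, without overlap in either population and with small log2 changes of 0.19 ± 0.64 and 0.49 ± 0.64. In PD-1- Tregs it had 114 and 86.3 CPM under anti-PD-L1 and 154 and 14.5 CPM under isotype, and the 2 isotype libraries spanned the treated ones. Leaving out the first of these isotype libraries gave a log2 change of 2.78 in PD-1- Tregs (adjusted p = 0.00342 by edgeR), against 0.25 ± 0.70 with both (adjusted p = 1), so this value rests on 1 library. Irf4 had 35.5, 32.2 and 1.66 CPM under anti-PD-L1 and 38.2 and 68.6 CPM under isotype in PD-1+ Tregs, all treated libraries below. It had 7.17 and 0 CPM against 0 and 69.1 CPM in PD-1- Tregs, and 18.6, 17.5 and 22.6 CPM against 21.5 and 26.7 CPM in CD4 T cells, with overlap in both. Its SE of 2.16 to 2.62 on the log2 scale allows no statement on direction. A count of 0 in the treated PD-1- library allows up to 0.252 CPM and in the isotype library up to 0.279 CPM (3 counts).

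Of the partner genes fixed beside them (Batf2, Batf3, Jun, Junb, Jund, Fos, Fosb, Fosl1, Fosl2, Irf1, Irf2 and Irf8), 0 of 12 passed the test for treatment in any population with edgeR. Their median log2 change was -0.15 for PD-1+ Tregs, 0 for PD-1- Tregs and -0.30 for CD4 T cells, beside 0, 0 and -0.01 for all genes. Junb, the partner with the highest mean over all 14 libraries, had 676 ± 414 CPM under anti-PD-L1 and 831 ± 435 CPM under isotype in PD-1+ Tregs, 1876 ± 1071 and 501 ± 185 CPM in PD-1- Tregs, and 2063 ± 748 and 2951 ± 86.1 CPM in CD4 T cells.

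Prdm1, Nfil3 and Tbx21 were low or uneven between libraries. Prdm1 had 136, 15.8 and 66.9 CPM under anti-PD-L1 and 33.6 and 0 CPM under isotype in PD-1+ Tregs, and 109 and 14.4 CPM against 0 and 23.5 CPM in PD-1- Tregs, with overlap in both. In CD4 T cells it had 28.5, 58.3 and 56.3 CPM under anti-PD-L1 and 21.4 and 15.2 CPM under isotype, without overlap. The zeros allow up to 0.237 CPM in the PD-1+ library and 0.279 CPM in the PD-1- library. Nfil3 had 50.7, 86.8 and 155 CPM under anti-PD-L1 and 101 and 81.5 CPM under isotype in PD-1+ Tregs, with overlap, and 30.2, 19.6 and 23.6 CPM against 14.2 and 12.7 CPM in CD4 T cells, without. In PD-1- Tregs it had 0 and 8.41 CPM under anti-PD-L1 and 1.96 and 37.9 CPM under isotype, and this comparison passed only without the second treated library (adjusted p = 0.0285 by edgeR, against 0.576 with it), which leaves a treated library with no count.

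Tbx21 was higher under anti-PD-L1 in CD4 T cells, with 76.0, 72.0 and 94.2 CPM under anti-PD-L1 and 29.0 and 23.3 CPM under isotype, a log2 change of 1.63 ± 1.72 that did not pass the threshold (adjusted p = 1 by edgeR). PD-1+ Tregs had 15.7, 42.2 and 52.9 CPM under anti-PD-L1 and 0.255 and 23.0 CPM under isotype, with overlap. PD-1- Tregs had 0.592 and 0 CPM under anti-PD-L1 and 0 and 0.0905 CPM under isotype. These are 8 counts against 1, a ratio of 6.86 with a 95% counting interval of 0.92 to 304, so no treatment effect could be seen at this depth.

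Counting genes whose libraries did not overlap, the number among the 9 was largest in CD4 T cells. There 8 of the 9 genes were higher under anti-PD-L1 (all but Irf4), against 12.5% of all genes tested, and 0 were lower, against 15.5%. In PD-1+ Tregs 4 were higher (Id2, Batf, Rora and Gata3), against 7.69%, and 1 was lower (Irf4), against 11.5%. In PD-1- Tregs 2 were higher (Id2 and Maf), against 12.5%, and 1 was lower (Gata3), against 14%. The median log2 change of the 9 genes was 0.92, 0.25 and 0.87 in PD-1+ Tregs, PD-1- Tregs and CD4 T cells. In CD4 T cells the 4 Treg markers moved in the same direction, at 226 to 359 CPM under anti-PD-L1 and 110.1 to 110.7 CPM under isotype, as did the 8 T cell markers, at 7514 to 8016 CPM and 6814 to 7088 CPM, while stromal and mesothelial markers were lower, at 312 to 853 CPM and 1207 to 1591 CPM. Libraries of the same group were also more alike in CD4 T cells, with Pearson's r of log2 CPM at 0.858 to 0.924. It was 0.676 to 0.743 in PD-1+ Tregs and 0.609 to 0.642 in PD-1- Tregs. The part of the markers and of the replicate spread in the count was not tested.

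Id2 was the single one of the 9 genes that was higher without overlap in all 3 populations, which 84 genes were (0.625% of those tested). Of the genes listed beside the 9, Ccl5, Cd3e, Cxcr3, Gzmb, Icos, Il10, Klrg1 and Tigit shared that pattern, and Ccr7, Foxp1 and Pax5 were lower in all 3 populations, as 0.878% of genes were.

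**Figure D2:**
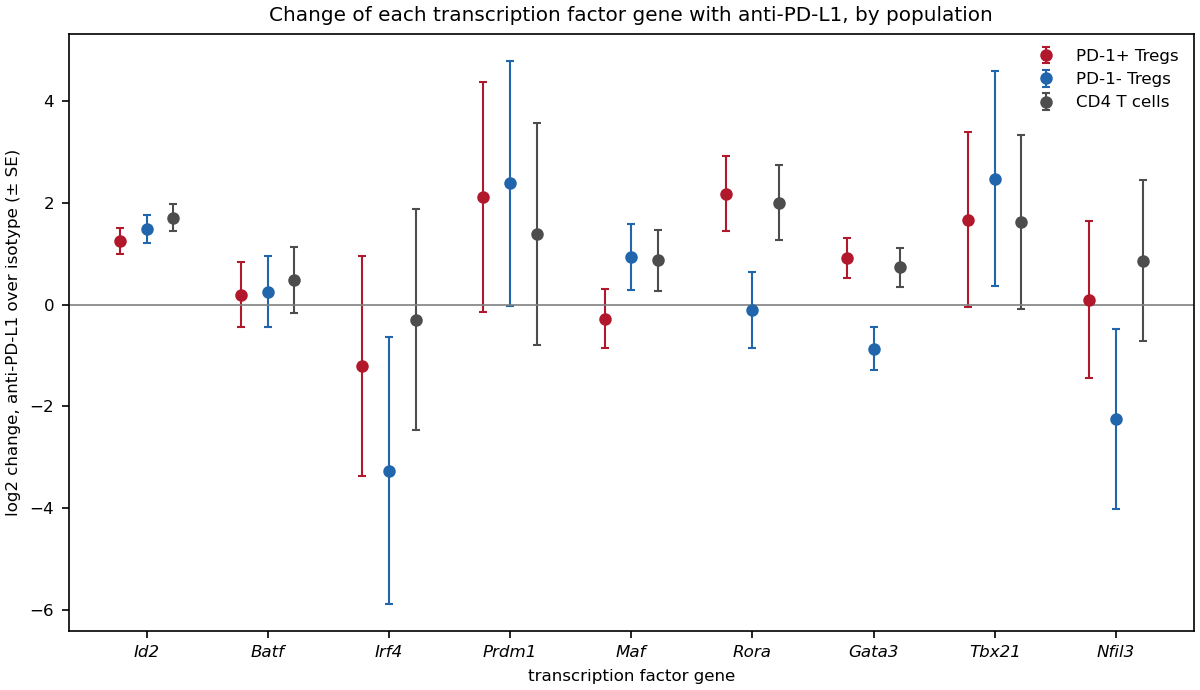
Log2 change with anti-PD-L1 over isotype for each transcription factor gene (vertical axis), by population, from edgeR. Points are estimates and bars ± 1 SE. Id2 lies at 1.24, 1.48 and 1.71 with SE of 0.25 to 0.27, Gata3 lies above 0 in PD-1+ Tregs and CD4 T cells and below 0 in PD-1- Tregs, and the bars of Irf4, Prdm1, Tbx21 and Nfil3 are several times longer.

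The products that these factors are known to govern were counted from lists of effector Treg molecules and of the Th1, Th2 and Th17 programmes. These lists were chosen with earlier results of these data known, so their counts and medians are a description and no independent test. Of 16 effector Treg genes, 4 rose with treatment averaged over the populations, namely Icos (log2 change 1.25 ± 0.18), Tnfrsf18 (0.87 ± 0.19), Tigit (1.73 ± 0.19) and Gzmb, and 0 fell. Of all genes, 0.722% rose and 0.506% fell in this comparison. Gzmb, the cytotoxic protease granzyme B, had 240.5 ± 45.1 CPM under anti-PD-L1 and no count under isotype in PD-1- Tregs (SD, n = 2 each). Of the 11 Th1 genes, which T-bet governs in part, 3 rose over the populations, Cxcr3 (3.33 ± 0.53), Ccl5 (1.81 ± 0.27) and Nkg7 (1.69 ± 0.20). In PD-1- Tregs, where Tbx21 was at 0 to 0.592 CPM, Cxcr3 had 273 ± 71.0 CPM under anti-PD-L1 and 3.35 ± 4.61 CPM under isotype (adjusted p = 0.00999 by edgeR). Stat4, Nkg7 and Tigit also rose in PD-1- Tregs (adjusted p = 0.0251, 0.0071 and 0.00684), with Nkg7 at 117 ± 37.9 CPM under anti-PD-L1 and 25.0 ± 0.0490 CPM under isotype. Of all genes, 1.38% passed as higher in that comparison. With library quality weights, and with only the libraries compared, 0 of all genes passed there, so these calls were lost. Values without the Y-linked library are not given for these listed genes. The median fitted log2 change over populations was 1.14 for the effector Treg list and 1.77 for the Th1 list, beside 0.01 for all genes.

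The Th2 and Th17 lists, which hold targets and partners of GATA3 and RORα, had 0 genes past the threshold for treatment in edgeR. Of 8 Th2 genes 7 were tested, and their most abundant members were Stat6, at 105 ± 44.0 CPM in PD-1+ Tregs, 150.1 ± 53.3 CPM in PD-1- Tregs and 155 ± 38.3 CPM in CD4 T cells, Il4ra (39.2, 73.1 and 100.3 CPM) and Ccr4 (10.3, 31.2 and 12.3 CPM). The Th2 cytokine genes were near 0, with Il5 at no count in either Treg type and Il4 at no count in PD-1- Tregs. Of 10 Th17 genes 9 were tested, led by Stat3, at 397 ± 90.4 CPM in PD-1+ Tregs, 259 ± 80.7 CPM in PD-1- Tregs and 371 ± 108 CPM in CD4 T cells, Il6ra (30.8, 147 and 197 CPM) and Ccr6 (39.5, 15.4 and 23.4 CPM). Of 8 genes of resting and memory T cells, 1 fell with treatment over the populations, against 0.506% of all genes. It was Bach2, a repressor of effector genes including Prdm1, which had no count under anti-PD-L1 and 99.3 ± 94.5 CPM under isotype in PD-1- Tregs.

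The populations were then compared with each other, averaged over both treatments with equal weight. Between PD-1+ and PD-1- Tregs, 2 of the 9 genes rose, Id2 and Tbx21, against 4.28% of all genes (3.8% higher and 0.476% lower). The median log2 difference of all genes was 0.42 in this comparison, and that of the 9 genes 0.97. Id2 had 464 ± 195 CPM in PD-1+ Tregs (SD, n = 5) and 227 ± 142 CPM in PD-1- Tregs (n = 4), a log2 difference of 0.97 ± 0.18 (adjusted p = 0.0127 by edgeR). The libraries overlapped when both treatments were pooled, since anti-PD-L1 PD-1- libraries reached the isotype PD-1+ level. Between the isotype groups only, in the same fit of all libraries, the difference was 1.09 (adjusted p = 0.0797 by edgeR). Between the anti-PD-L1 groups only it was 0.85 (adjusted p = 0.109), and the call was lost in both. It was also lost with treatment and bracketed number as a block (0.99, adjusted p = 0.0802), with limma-voom (1.03, adjusted p = 0.0628), with quality weights (1.04, adjusted p = 0.263) and with only the libraries compared (0.97, adjusted p = 0.167). Without the Y-linked libraries it was 1.22 (adjusted p = 0.0158).

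Tbx21 was almost absent from PD-1- Tregs. The 4 PD-1- libraries held 9 counts of Tbx21 in all, and the 5 PD-1+ libraries 1559, a ratio of pooled counts of 138 with a 95% counting interval of 72.7 to 303. That interval leaves out the spread between libraries. Levels were 26.8 ± 21.0 CPM in PD-1+ Tregs and 0.171 ± 0.284 CPM in PD-1- Tregs. The edgeR log2 difference, which takes in that spread, was 7.31 (95% interval 3.66 to 10.96, adjusted p = 0.0323). The first isotype PD-1+ library, at 0.255 CPM, lay below the highest PD-1- library, so the populations overlapped by that library. The call was kept in 10 of 28 alternatives. It was lost without any 1 of the 5 CD4 libraries (adjusted p = 0.066 to 0.072), without the second isotype PD-1+ library (4.58 in place of 7.31 on the log2 scale, adjusted p = 0.112), without either isotype or the second anti-PD-L1 PD-1- library, without the second anti-PD-L1 PD-1+ library, and without the Y-linked libraries (6.67, adjusted p = 0.117). It was lost as well with either replicate block (adjusted p = 0.126 for the number after rep and 0.156 for treatment and bracketed number), quality weights (0.223), log2(RPKM + 1) in limma (0.0592) and only the libraries compared (0.304). The same held between the isotype (0.182) or the anti-PD-L1 groups (0.153) only, in the fit of all libraries.

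The CD4 T cells had the highest mean Tbx21 level of the 3 populations, at 58.9 ± 31.1 CPM against 26.8 ± 21.0 CPM in PD-1+ Tregs. The libraries of these populations overlapped, and the log2 difference of PD-1+ Tregs against CD4 T cells did not pass the threshold. It was -1.15 (95% interval -3.67 to 1.38, adjusted p = 0.937 by edgeR). Between PD-1- Tregs and CD4 T cells, 2 of the 9 genes fell, Id2 and Tbx21, against 3.6% of all genes (3.33% lower), and the median of all genes was -0.94. Tbx21 had 9 counts over the PD-1- libraries and 4064 over the 5 CD4 libraries, so the pooled level in CD4 T cells was 309 times that in PD-1- Tregs (95% counting interval 163 to 676), and all libraries were apart (1 of 9 genes lower without overlap, against 13% of genes, and 0 of 9 higher, against 1.01%). The edgeR log2 difference, which takes in the spread between libraries, was -8.46 (95% interval -12.28 to -4.63). The adjusted p was 0.0231 by edgeR. The call was lost without any 1 of the CD4 libraries (log2 difference -8.55 to -8.40), without the first isotype PD-1- library (-8.05) and without the Y-linked libraries (-7.94). It was lost as well with either replicate block (adjusted p = 0.0868 and 0.107) and with quality weights (0.0614). The same held between the isotype (0.135) or the anti-PD-L1 groups (0.167) only, in the fit of all libraries. Id2 had 227 ± 142 CPM in PD-1- Tregs and 743 ± 399 CPM in CD4 T cells, a log2 difference of -1.50 ± 0.19 (adjusted p = 0.00168), which is larger in size than the median of all genes and was called in 27 of 28 alternatives.

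Markers of myeloid cells, like Tbx21, were lowest in PD-1- Tregs. The 15 macrophage and monocyte markers summed to 4511 to 8180 CPM in PD-1+ Tregs, 559 to 1083 CPM in PD-1- Tregs and 3020 to 7595 CPM in CD4 T cells. Of the 15, 12 rose in PD-1+ against PD-1- Tregs, beside 3.8% of all genes. C1qa and Fcgr1 and the dendritic cell genes Xcr1 and Zbtb46 had no count in any PD-1- library, and neither had Batf3, a relative of Batf that dendritic cells use, at 14.3 ± 8.94 CPM in PD-1+ Tregs and 13.2 ± 2.76 CPM in CD4 T cells. The PD-1- libraries also had the fewest genes with a count. Their part in the Tbx21 and Id2 differences was not tested.

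**Figure D3:**
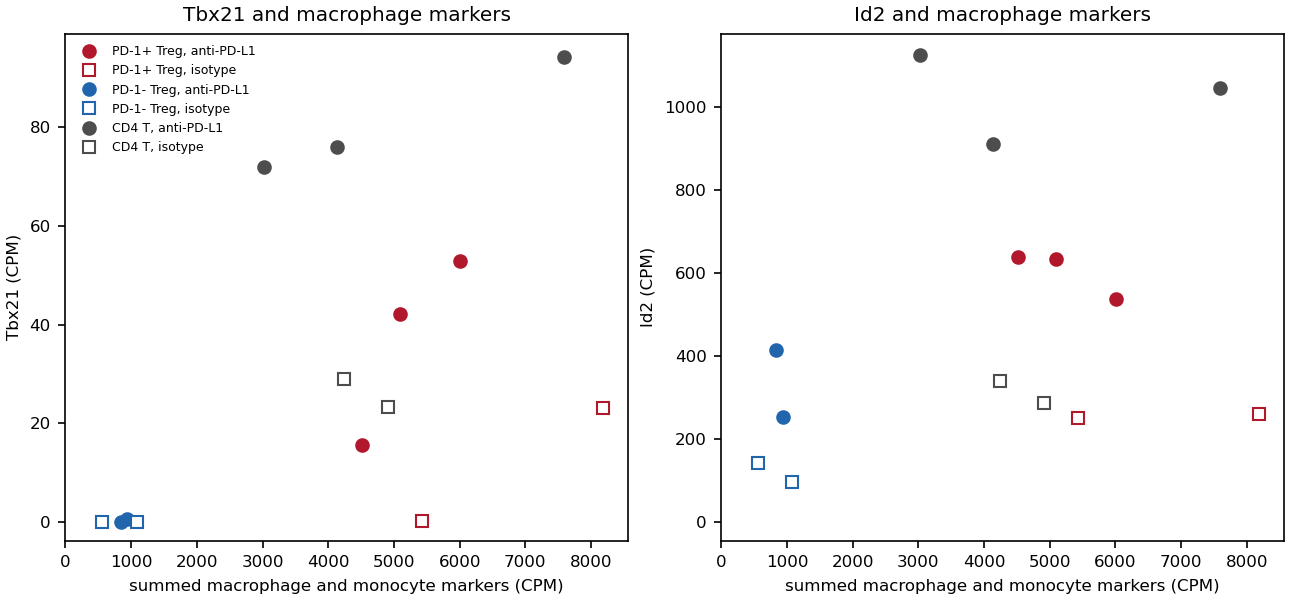
CPM of Tbx21 (left) and Id2 (right) against the summed CPM of 15 macrophage and monocyte markers, 1 point per library, coloured by population, filled for anti-PD-L1 and open for isotype. The 4 PD-1- Treg libraries lie at 559 to 1083 CPM of markers with Tbx21 near 0, while the Id2 values of anti-PD-L1 and isotype libraries do not overlap within any population.

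Batf and Nfil3 were the genes that set PD-1+ Tregs apart by library. Batf averaged 218 ± 19.0 CPM in PD-1+ Tregs, 92.3 ± 58.9 CPM in PD-1- Tregs and 135 ± 25.2 CPM in CD4 T cells, and all 5 PD-1+ libraries were above all others. Nfil3 averaged 95.1 ± 38.3 CPM in PD-1+ Tregs, 12.1 ± 17.6 CPM in PD-1- Tregs and 20.1 ± 7.13 CPM in CD4 T cells, likewise without overlap. These 2 of 9 genes compare with 3.24% of all genes higher without overlap in PD-1+ against PD-1- Tregs (0.782% lower) and 1.71% in PD-1+ Tregs against CD4 T cells (4.72% lower). Neither passed the threshold against PD-1- Tregs (Batf 1.22 ± 0.48, adjusted p = 0.159; Nfil3 3.36 ± 1.29, adjusted p = 0.146, by edgeR). Against CD4 T cells the values were 0.74 ± 0.45 (adjusted p = 0.611) and 2.38 ± 1.15 (adjusted p = 0.431).

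These values of Batf and Nfil3 depended on the method and on single PD-1- libraries. With limma-voom on all libraries, the Batf difference between the Treg types was 1.65 (adjusted p = 0.0252). Without the first isotype PD-1- library, it was 2.49 (adjusted p = 0.000646, range over alternatives 0.000646 to 0.400). That of Nfil3 passed in 6 of 28 alternatives, namely with all libraries in DESeq2 (3.32, adjusted p = 0.00692), limma-voom (adjusted p = 0.0213) and limma on log2(RPKM + 1) (0.0172) or log2(RPKM + 0.1) (0.0283), and without the second anti-PD-L1 PD-1- library (adjusted p = 0.0116) or the Y-linked libraries (adjusted p = 0.0361).

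In PD-1+ Tregs against CD4 T cells, 0 of the 9 genes passed with edgeR, against 0.35% of all genes. Unadjusted p-values were below 0.05 for 2 of them, Id2 (-0.53 ± 0.17, adjusted p = 0.293) and Gata3 (0.83 ± 0.27, adjusted p = 0.294). DESeq2 called 1, Gata3 (5.52% of all genes called), and limma with quality weights 3, Batf, Gata3 and Nfil3 (5.49% of all genes called). Gata3 averaged 218 ± 75.7 CPM in PD-1+ Tregs, 179 ± 70.4 CPM in PD-1- Tregs and 119 ± 49.6 CPM in CD4 T cells, with overlap between all of them. Rora averaged 242 ± 157, 106 ± 65.1 and 141 ± 92.4 CPM, Maf 70.9 ± 28.0, 82.2 ± 36.2 and 67.9 ± 21.0 CPM, Prdm1 50.5 ± 53.9, 36.6 ± 48.9 and 35.9 ± 20.1 CPM, and Irf4 35.2 ± 23.8, 19.1 ± 33.5 and 21.4 ± 3.64 CPM in the same order of populations, and the libraries of each overlapped in every pair.

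The lists gave the setting of these levels. Against PD-1- Tregs, PD-1+ Tregs had 4 of 16 effector Treg genes higher (Tnfrsf9, Ccr8, Tigit and Lag3), 3 of 11 Th1 genes higher (Cxcr3, Ccl5 and Nkg7) and 4 of 8 resting genes lower (Tcf7, Lef1, Klf2 and Satb1), all past the threshold. Of all genes, 3.8% passed as higher and 0.476% as lower in this fit. The share called in either direction was 0% with quality weights and 0.283% with only the libraries compared. Against CD4 T cells, PD-1+ Tregs had 6 of 16 effector Treg genes higher (Ctla4, Tnfrsf4, Tnfrsf9, Tnfrsf18, Ccr8 and Tigit) and 2 of 8 resting genes lower (Tcf7 and Lef1). The shares of all genes were 0.171% higher and 0.179% lower. PD-1- Tregs against CD4 T cells had 3 effector Treg genes higher (Ctla4, Tnfrsf4 and Tnfrsf18), Lag3 lower, and the Th1 genes Cxcr3, Ccl5 and Nkg7 lower, with Nkg7 at 71.0 ± 57.4 CPM in PD-1- Tregs and 543 ± 357 CPM in CD4 T cells. Here 0.275% of all genes passed as higher and 3.33% as lower. Batf3 passed the test as lower in PD-1- Tregs against CD4 T cells and as higher in PD-1+ against PD-1- Tregs. Bach2 passed as lower in PD-1- Tregs against CD4 T cells by the mean of the fitted log2 levels, although its mean CPM was 49.6 ± 79.1 for PD-1- Tregs and 39.6 ± 25.9 for CD4 T cells. In the difference of treatment effects between PD-1+ and PD-1- Tregs, Gzmb passed as lower and Bach2 and Foxo1, a factor of resting T cells, as higher. The shares of all genes were 0.618% lower and 0.841% higher.

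To compare genes with each other, the authors' RPKM values (reads scaled by transcript length and library size) were used, since counts grow with transcript length. Averaged over both treatments, Id2 had the highest RPKM level of the 9 genes in all 3 populations, at 300.0 ± 120 RPKM in PD-1+ Tregs, 158 ± 103 RPKM in PD-1- Tregs and 517 ± 274 RPKM in CD4 T cells. Batf came second, at 200.5 ± 16.1, 89.0 ± 55.3 and 132 ± 24.4 RPKM, and Gata3 after it, at 55.6 ± 17.3, 47.3 ± 16.1 and 32.7 ± 13.1 RPKM. In isotype libraries alone, Id2 lay below Batf in both PD-1+ Treg libraries, with 170.5 and 181 RPKM of Id2 and 205 and 184 RPKM of Batf. The 2 isotype PD-1- libraries went opposite ways, with 61.4 and 91.0 RPKM of Id2 and 138 and 13.0 RPKM of Batf. Their means were 76.2 RPKM of Id2 and 75.4 RPKM of Batf. In CD4 T cells these 3 levels were apart in all libraries. In PD-1+ Tregs Batf and Gata3 were apart, while Id2 and Batf overlapped. In PD-1- Tregs no neighbours in the order were apart.

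Below these, the order by RPKM differed between populations and all neighbours overlapped. PD-1+ Tregs had Nfil3 (39.4), Rora (18.0), Maf (16.3), Tbx21 (8.58), Prdm1 (7.74) and Irf4 (6.34 RPKM). PD-1- Tregs had Maf (19.9), Rora (8.50), Prdm1 (6.47), Nfil3 (4.97), Irf4 (3.29) and Tbx21 (0.0622 RPKM). CD4 T cells had Tbx21 (20.5), Maf (16.5), Rora (11.4), Nfil3 (8.95), Prdm1 (6.09) and Irf4 (3.99 RPKM). Tbx21 thus held the fourth place in CD4 T cells and the last in PD-1- Tregs.

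**Figure D4:**
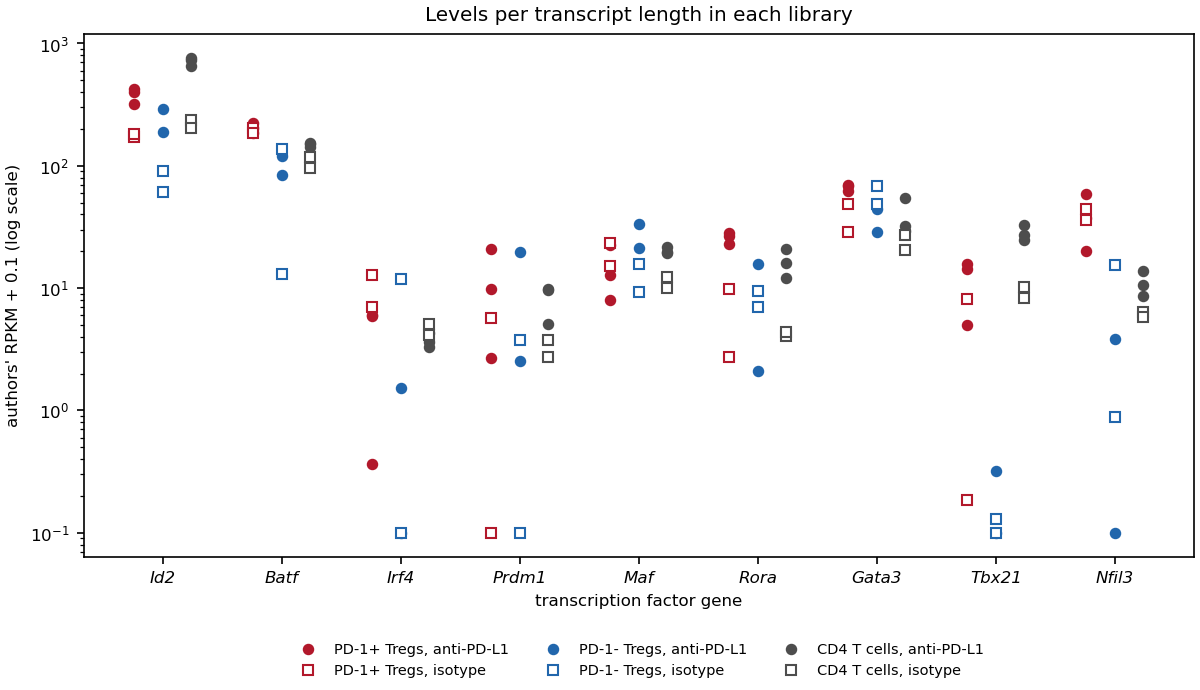
Authors' RPKM + 0.1 (log scale) of each transcription factor gene in each library, with PD-1+ Tregs, PD-1- Tregs and CD4 T cells side by side, filled for anti-PD-L1 and open for isotype. Id2 and Batf are the highest, at means of 300.0 and 200.5 RPKM in PD-1+ Tregs, and points at 0.1 are libraries with no count.

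Over the 14 libraries, the gene most like Id2 by Pearson's r of log2 CPM was Nkg7 (0.89), a granule protein of cytotoxic and Th1 cells, followed by Runx2 (0.89) and the chemokine gene Ccl5 (0.86). Nkg7 and Ccl5 were among the genes that rose with treatment and were lowest in PD-1- Tregs. The gene most like Tbx21 was the dendritic cell receptor gene Xcr1 (0.98), followed by Slc39a6 (0.97) and the complement gene Cfb (0.96). The first genes for the others were Pgm1 for Batf (0.96), G6pc3 for Irf4 (0.97), Pde4d for Prdm1 (0.97), Grhpr for Maf (0.81), Sept11 for Rora (0.87), Dctn4 for Gata3 (0.89) and Sh3rf1 for Nfil3 (0.93). These are the highest of 8833 genes searched, the libraries share populations and treatments, and the low genes share zero counts in PD-1- Tregs, so the values are descriptions with no test.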

How the data were processed

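Per the submitters' processing notes, reads were handled with HISAT2 2.0.4, SAMtools, HOMER 3.12 and DESeq2 on mm10; annotation, strand and settings: not given in the sources used here. The authors deposited raw counts per gene, used for all tests, and RPKM values, used to set genes side by side. Counts were analysed with edgeR 4.0.16 in R 4.3.3: TMM scaling, a filter on low counts (filterByExpr, minimum 10; 13434 of 25124 genes kept), 1 robust quasi-likelihood fit of 6 group means over 14 libraries, and Benjamini-Hochberg adjustment over all genes within each comparison, with a threshold of 0.05. CPM use TMM-scaled library sizes. The 3 treatment comparisons use separate libraries, while the population comparisons share libraries with each other. Whether those separate libraries came from the same animals or pools is not given. Alternatives used DESeq2 1.42.0 and limma 3.58.1. The fit was tested on simulated data, but the share of changed genes it recovered is not reported here. Total counts per library ran from 10638848 to 15030804, and counting intervals (95%) and floors (3 counts) cover counting error only. Genes named are the 9 regulators, genes of the regulator and programme lists past the threshold, or the most abundant 3 of such a list without one. The genes most correlated with each regulator are named too (log2 CPM, prior count 2, mean of at least 10 CPM). Cell type marker lists are given as sums and counts, and their genes past the threshold are not all named. The genes and lists were chosen with earlier results of these data known.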

Additional observations from a re-analysis of the deposited data

Results flagged for a closer look

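Gata3 values lay on opposite sides of isotype between populations. Every anti-PD-L1 library was above isotype in PD-1+ Tregs and CD4 T cells and below it in PD-1- Tregs. The gene was flagged for that pattern, and no change or difference of changes passed the threshold with edgeR. The share of all genes with such a pattern is not given. The fitted change in PD-1+ Tregs minus that in PD-1- Tregs was 1.78 on the log2 scale (adjusted p = 0.156 by edgeR). The change in PD-1- Tregs minus that in CD4 T cells was -1.59 (adjusted p = 0.239). Without the libraries with Y-linked counts, which leaves only the first treated PD-1- library, these differences were 1.48 and -1.55. The share of all counts taken by Actb lay on the same sides without overlap, at 5.88% to 7.27% under anti-PD-L1 and 3.60% to 4.26% under isotype in PD-1+ Tregs, 2.74% to 3.16% and 6.53% to 8.71% in PD-1- Tregs, and 3.85% to 6.67% and 3.24% to 3.84% in CD4 T cells. Within PD-1- Tregs, Treg markers (975 to 983 CPM under anti-PD-L1, 1112 to 1669 CPM under isotype) and the genes of dendritic cells and MHC class II (9054 to 11245 CPM and 14697 to 16139 CPM) were lower as well. Their part in the Gata3 values was not tested.

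Summed counts of 4 Y-linked genes, outside the comparisons and in mice labelled female, reached 285 CPM in the third anti-PD-L1 library of PD-1+ Tregs, 249.5 CPM in the second of PD-1- Tregs and 208 CPM in the third of CD4 T cells, against at most 0.0849 CPM in isotype libraries.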

How the results depend on the processing

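Of 2348 values of single genes under the alternatives, 2141 kept their direction and side of the threshold, 124 changed sign with neither fit past it, 39 gained and 43 lost a call, and 1 reversed: the treatment effect on Batf in PD-1- Tregs minus CD4 T cells was 2.32 without the first isotype PD-1- library and at its lowest -1.10 without the second (adjusted p = 0.0233 by edgeR, range over alternatives 0.0233 to 1). The cause was not tested.

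Counts of the 9 genes past the threshold are given here with the share of all genes that the same fit called. DESeq2 called 1 gene for treatment in PD-1+ Tregs (4.6% of all genes), 1 for CD4 T cells (0.402%), 2 over the 3 populations (14.1%), 3 between the Treg types (22.1%), 1 between PD-1+ Tregs and CD4 T cells (5.52%), 3 between PD-1- Tregs and CD4 T cells (23.3%) and 1 among the differences of effects. Between the Treg types, limma-voom called 3 (Batf, Tbx21 and Nfil3, 9.81%), log2(RPKM + 0.1) called 3 (5.43%), and log2(RPKM + 1) (3.9%) and the fit without the Y-linked libraries (4.38%) called Id2 and Nfil3. For treatment in CD4 T cells, 1 was called without a filter (0.0182%), 1 with limma on log2(RPKM + 1) (0.127%), 1 on log2(RPKM + 0.1) (0.201%) and 1 with only the libraries compared (0.0464%). For treatment in PD-1- Tregs, 0 were called by limma-voom (5.08%), 0 with only the libraries compared (0%) and 0 without the libraries with Y-linked counts (4.85%). Quality weights gave, for treatment, 0 genes in PD-1- Tregs (0%), 3 genes in CD4 T cells (2.27%), 0 over the populations (0.0298%), 0 between the Treg types (0%), 3 between PD-1+ Tregs and CD4 T cells (5.49%) and 0 between PD-1- Tregs and CD4 T cells (0.223%). Only the libraries compared gave 0 between the Treg types (0.283%) and 2 between PD-1+ Tregs and CD4 T cells (1.14%). Comparisons between the groups of 1 treatment only were taken from the fit of all libraries. For PD-1- Tregs and CD4 T cells 1 was called between isotype groups (0.96%) and 1 between anti-PD-L1 groups (0.841%). For the Treg types 0 were called between isotype (0.871%) and 0 between anti-PD-L1 groups (1.77%).

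Leaving out each library in turn gave 0 to 0 for treatment in PD-1+ Tregs, 1 to 2 in PD-1- Tregs, 0 to 1 for CD4 T cells, 1 to 2 over the populations, 1 to 3 between the Treg types, 0 to 0 between PD-1+ Tregs and CD4 T cells, 1 to 3 between PD-1- Tregs and CD4 T cells and 0 to 2 among the differences of effects. Over all alternatives the number of all genes called ran from 0 to 618 (2 as reported) for treatment in PD-1+ Tregs, 0 to 2755 (358) in PD-1- Tregs, 0 to 305 (1) for CD4 T cells, 4 to 1898 (165) over the populations, 0 to 2963 (575) between the Treg types, 5 to 741 (47) between PD-1+ Tregs and CD4 T cells, 30 to 3331 (484) between PD-1- Tregs and CD4 T cells and 0 to 4244 (327) among the differences of effects.

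The labels carry 2 numberings of replicates. Deviations of same-numbered libraries correlated at -0.0333 to 0.0354 for the number after rep and at 0.002 to 0.0354 for the bracketed number, all under 0.1. Differently numbered libraries correlated at -0.0307 to 0.0333 and at -0.0333 to 0.0172 in the same order. Deviations within a group sum to 0, so these values are not independent of each other. The labels do not say what either number marks. The Y-linked counts occurred in exactly the libraries with bracketed number 3, 1 in each population, so these 3 share a feature, and a shared source behind the bracketed numbers was not tested otherwise. With the number after rep as a replicate block, 1 gene was called between the Treg types (1.29% of all genes) and 1 between PD-1- Tregs and CD4 T cells (0.744%), and with treatment and bracketed number as a block 0 (0.625%) and 1 (0.387%). The bracketed block was not run for treatment, nor was the fit of only the libraries compared for treatment over the populations. With 2 or 3 libraries a group and genes at 0 in single PD-1- libraries, depth limits what can be said of Irf4, Prdm1, Tbx21 and Nfil3 there.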
